A study of Mus musculus with 4 samples.

Results

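Interferon-stimulated genes are genes whose transcription is switched on by interferons, the secreted proteins with which cells warn one another of infection. A list of 37 such genes, without the Ifitm family, was chosen by name and followed through 8 marker-named cell classes of the liver libraries. Of these, 35 had a row in both RNA tables, out of 32285 genes, and Mx1 and Mx2 were not analysed here. The chromatin tables held 64 of 127216 shared accessible regions within 2 kb of the start sites of these genes. Where a gene has several listed start sites, the whole span between the first and the last was taken, with 2 kb on either side. For Rtp4 (chr16:23520291-23609925) and Ifi47 (chr11:49076587-49088264) this takes in regions farther than 2 kb from both ends. The libraries were made from nuclei of live CD45+ CD64- CD11c+ cells sorted from livers of C57BL/6J mice of 6 to 12 weeks. CD11c is carried by dendritic cells and by part of the NK cells and macrophages, and the gate on CD64 was meant to leave macrophages out. The mice ate chow with 0.1% DDC (3,5-diethoxycarbonyl-1,4-dihydrocollidine), a compound that injures bile ducts and gives a cholangitis, for 0 days (D0, the controls) or 5 days (D5). Each day was 1 multiome library, in which RNA and open chromatin are read from the same nucleus, so the 4 samples are the RNA and the chromatin layers of 2 libraries. The number of animals behind a library is not given in the sources used here.

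Type I interferons (interferon-α and -β) signal through a complex that holds STAT2 and IRF9 and binds a GAAA-rich element in the promoters of antiviral genes. Interferon-γ, made by NK and T cells, acts in part through IRF1 and drives the guanylate-binding proteins, the immunity-related GTPases and the chemokines CXCL9 and CXCL10 most strongly. In the liver the response is best known as a defence against hepatitis viruses. Plasmacytoid dendritic cells (pDCs) are known as the main source of type I interferon, while conventional dendritic cells (cDC1 and cDC2) present antigen and draw T cells to themselves with CXCL9 and CXCL10.

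The promoters of 7 of these genes are shown because the RNA results below turn on them: Cxcl9, Cxcl10, Gbp2 and Igtp had the lowest median ratios of D5 over D0 over the classes, Rsad2 and Isg15 are classical antiviral genes, and Bst2 did not differ between the days in any class by 1.5-fold. Each line gives the 250 bases before the RefSeq start site, in GRCm38.p6 (mm10) and in the direction of transcription. Capitals mark the letters AANNGAAA (the core bound by interferon regulatory factors), GAAANNGAA and TTCNNNGAA (the STAT dimer element), each searched on both strands. GAAANNGAA covers the pair of GAAA repeats of interferon-stimulated response elements but does not require the last A of the pair. It overlaps with AANNGAAA.
Cxcl9: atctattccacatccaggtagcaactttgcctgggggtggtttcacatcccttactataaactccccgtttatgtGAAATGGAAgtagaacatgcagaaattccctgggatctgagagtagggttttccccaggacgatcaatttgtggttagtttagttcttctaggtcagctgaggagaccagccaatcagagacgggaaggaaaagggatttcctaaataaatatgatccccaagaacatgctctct
Cxcl10: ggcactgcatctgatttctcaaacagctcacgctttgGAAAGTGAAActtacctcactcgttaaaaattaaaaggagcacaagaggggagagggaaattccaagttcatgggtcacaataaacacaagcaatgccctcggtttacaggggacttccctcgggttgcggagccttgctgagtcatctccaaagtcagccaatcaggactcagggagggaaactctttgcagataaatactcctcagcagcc
Gbp2: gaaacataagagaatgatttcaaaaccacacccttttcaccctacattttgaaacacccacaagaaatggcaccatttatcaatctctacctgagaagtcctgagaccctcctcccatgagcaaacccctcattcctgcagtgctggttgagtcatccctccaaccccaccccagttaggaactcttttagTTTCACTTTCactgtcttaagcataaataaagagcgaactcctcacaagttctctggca
Igtp: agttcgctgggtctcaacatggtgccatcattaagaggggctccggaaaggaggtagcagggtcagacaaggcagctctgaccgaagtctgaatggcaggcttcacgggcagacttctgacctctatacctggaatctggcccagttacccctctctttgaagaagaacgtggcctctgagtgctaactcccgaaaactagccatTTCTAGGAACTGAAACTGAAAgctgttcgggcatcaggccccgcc
Rsad2: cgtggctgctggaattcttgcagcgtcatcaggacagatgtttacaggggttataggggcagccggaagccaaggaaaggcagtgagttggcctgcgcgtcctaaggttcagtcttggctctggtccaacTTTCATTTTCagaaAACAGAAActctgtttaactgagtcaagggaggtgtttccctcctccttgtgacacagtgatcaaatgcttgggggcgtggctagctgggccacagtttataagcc
Isg15: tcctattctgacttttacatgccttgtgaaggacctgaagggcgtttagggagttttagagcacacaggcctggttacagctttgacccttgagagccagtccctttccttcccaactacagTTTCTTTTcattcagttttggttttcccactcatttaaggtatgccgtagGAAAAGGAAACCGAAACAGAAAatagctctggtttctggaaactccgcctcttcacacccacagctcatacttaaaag
Bst2: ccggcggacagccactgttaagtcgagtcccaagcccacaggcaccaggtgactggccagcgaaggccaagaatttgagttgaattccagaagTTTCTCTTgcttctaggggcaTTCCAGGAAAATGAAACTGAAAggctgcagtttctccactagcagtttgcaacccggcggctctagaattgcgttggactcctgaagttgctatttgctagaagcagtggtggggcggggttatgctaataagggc
These stretches lie, in that order, at chr5:92328080-92328329, chr5:92348890-92349139, chr3:142620413-142620662, chr11:58199306-58199555, chr12:26456453-26456702, chr4:156200819-156201068 and chr8:71537473-71537722, with Gbp2 and Igtp on the plus strand and the others on the minus strand. The start site of Gbp2 in RefSeq lies 61 bases from that in the gene table of the libraries. Of the 37 members, 27 had an entry in the RefSeq promoter table, which holds 300 bases per gene, 250 before and 50 after the start. The core AANNGAAA was in 21 of the 27 (77.8%), against 23.9% of all 32851 promoters. The letters GAAANNGAA, with or without a full second GAAA, were in 18 (66.7%), against 8.56% of all promoters. TTCNNNGAA was in 5 (18.5%), against 8.30%. Of the 7 genes shown, Bst2 and Igtp held all 3 motifs, and Isg15 held 4 copies of the core. Cxcl9 held only GAAANNGAA, and there without a full second GAAA. Such GAAA-rich letters were found both in genes that were lower at D5 and in Bst2, which was not. A match is a description of letters and not of a bound site.

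After removal of doublets, 10982 nuclei at D0 and 19832 at D5 were clustered, and clusters were named from fixed markers, with "-like" for a class named in that way. The classes held, at D0 and D5, 2334 and 2014 pDC-like, 1622 and 2883 cDC1-like, 1766 and 5549 cDC2-like, 208 and 1329 preDC-like, 317 and 944 Ccr7+ DC-like (mature, migratory), 762 and 1245 macrophage-like, 1449 and 1103 NK cell-like and 343 and 433 T cell-like nuclei. A further 2066 nuclei at D0 (18.8%) and 4063 at D5 (20.5%) lay in clusters left unnamed, most of which are not described here. The preDC-like nuclei also carried the pDC markers, whose levels summed to 5509 (D0) and 3562 CPM (D5), against 11121 and 10661 in the pDC-like class. The T cell-like nuclei carried the NK cell markers at 4422 and 4068 CPM, above their T cell markers (2226 and 2019 CPM), so they are not cleanly separate from the NK cell-like class. Despite the gate, Fcgr1, which encodes CD64, was measured in macrophage-like nuclei at 43.6 and 77.0 CPM. Called nuclei had a median of 1799 UMIs (unique molecules) at D0 and 2790 at D5, 591 barcodes were called in both libraries, and the summed UMIs of a class ran from 376669 to 3894300 at D0 and from 876457 to 15904800 at D5. Levels are given as CPM, the UMIs of a gene per 1000000 UMIs of the class. Because each day is 1 library, no test between days was possible, the 95% intervals cover counting error only, and day, library and animal cannot be told apart.

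RNA floating free of nuclei was measured in barcodes of 10 to 100 UMIs that were not called as nuclei, and it moved with the day. The 8 NK cell markers summed to 3417 CPM in free RNA at D0 and 981 at D5, and to between 389 and 567 CPM at D0 and between 189.7 and 315 CPM at D5 in the 6 dendritic and macrophage-like classes, with at most 3 of the 8 at 0 in any of them. In the NK cell-like class they summed to 5402 and 4755 CPM. The 6 hepatocyte markers summed to at most 126 CPM at D0 and 37.8 CPM at D5, both in macrophage-like nuclei, and the 6 B cell markers to at most 19.9 and 15.2 CPM. The 5 biliary markers went up with the day, from at most 39.2 to at most 90.1 CPM in these classes and from 27.7 to 61.9 CPM in free RNA. The 6 neutrophil markers did so too, from at most 72.2 to 80.8 CPM and from 57.8 to 163 CPM in free RNA. The 6 endothelial and 7 T cell markers were lower at D5, at most 84.96 and 29.4 CPM and at most 100.4 and 77.5 CPM. Ifng, the gene of interferon-γ, served as a gauge, since dendritic cells and macrophages should have little of it. Its level in those 6 classes was at most 19.2% of its free RNA level at D0 and 14.1% at D5. The NK cell markers, used as another gauge after the data were seen, gave other shares, 11.4% to 16.6% of their free RNA level at D0 and 19.3% to 32.1% at D5. All 210 combinations of a member and a class that entered the comparison below lay above the highest Ifng share of the member's free RNA level on both days. With the highest NK cell marker share it was 210 at D0 and 209 at D5, the exception being Igtp in Ccr7+ DC-like nuclei. Entry needed a mean of 10 CPM, and for most members these shares came to less than that. The counts were thus largely set by the entry limit and do not measure how much free RNA a class holds. The part of free RNA in the differences between days was not tested.

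A member entered a class when its mean level over both days was 10 CPM or more, and it was counted as higher or lower when the levels differed by 1.5-fold or more. The lower counts at D5 were 1 of 23 members in pDC-like nuclei, where 6.91% of all genes were lower, 7 of 24 in cDC1-like (15.5%), 7 of 31 in cDC2-like (11.8%), 15 of 26 in preDC-like (21.5%), 11 of 28 in Ccr7+ DC-like (15.8%), 9 of 31 in macrophage-like (19.2%), 10 of 25 in NK cell-like (14.3%) and 9 of 22 in T cell-like nuclei (21.0%). Of the 81 combinations of a member and a class counted in either direction, 16 had a 95% interval that includes 0, most of them in the preDC-like (6), Ccr7+ DC-like (5) and T cell-like (3) classes. They are Dhx58, Rtp4, Xaf1, Ifit2 and Irgm1 in Ccr7+ DC-like, Oas3 in macrophage-like, Irf9, Stat2 and Gbp2 in T cell-like, Ifi204 in NK cell-like and Zbp1, Ifi204, Usp18, Irgm1, Igtp and Xaf1 in preDC-like nuclei. Shares of members were thus above the share of all genes in the preDC-like, Ccr7+ DC-like and NK cell-like classes by the widest margins, and pDC-like nuclei had about the share of all genes. Higher at D5 were 2 members in pDC-like nuclei (all genes 4.59%), 1 in cDC1-like (4.06%), 1 in cDC2-like (3.59%), 0 in preDC-like (9.58%), 3 in Ccr7+ DC-like (8.85%), 3 in macrophage-like (4.11%), 1 in NK cell-like (5.34%) and 1 in T cell-like nuclei (10.7%). The median log2 ratio of D5 over D0 in pDC-like nuclei was -0.05 for the members and -0.10 for all genes. In preDC-like nuclei it was -0.63 for the members and -0.17 for all genes, in Ccr7+ DC-like nuclei -0.44 for the members and -0.10 for all genes, and in NK cell-like nuclei -0.42 for the members and -0.16 for all genes. In macrophage-like nuclei it was -0.17 for the members and -0.21 for all genes, so the typical member there stood where the typical gene did. TMM scaling, which sets the bulk of genes equal, moved these ratios upward by 0.14 to 0.32 in log2. It also moved the counts of some classes, which are given below with the other alternatives.

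The members split by role. The interferon-inducible GTPases (Gbp2, Irgm1, Igtp and Ifi47) and the chemokines (Cxcl9 and Cxcl10) were lower at D5 in 33 of the 43 combinations of member and class that entered and higher in 0, with a median log2 ratio of -1.16. Over all genes 15.8% of the combinations of gene and class were lower and 6.36% higher. The other 29 members were lower in 36 of 167 combinations and higher in 12, with a median of -0.20. More of the lower combinations thus lay outside the 6 than in them. The 6 were set apart with earlier results of these data known. Combinations repeat the same genes over classes of the same libraries, so they are not independent observations. With TMM factors the 6 were lower in 28 of 43 and higher in 1, and the others lower in 23 of 167 and higher in 20, where over all genes 7.78% were lower and 13.9% higher. Thus the split between lower and higher among the other members depended on the scaling and that among the 6 did not. By role, the chemokines were lower in 13 of 15 combinations and the GTPases in 20 of 28, the sensors in 7 of 36, the transcription factors and feedback genes in 9 of 31, the effectors in 14 of 50, the oligoadenylate synthetases in 3 of 18 and the Trim, Slfn, Parp and Xaf1 genes in 3 of 32. Against the 15.8% of all genes, the transcription factors and feedback genes and the effectors were above that share. The sensors and synthetases were near it and the Trim, Slfn, Parp and Xaf1 genes under it.

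**Figure D1:**
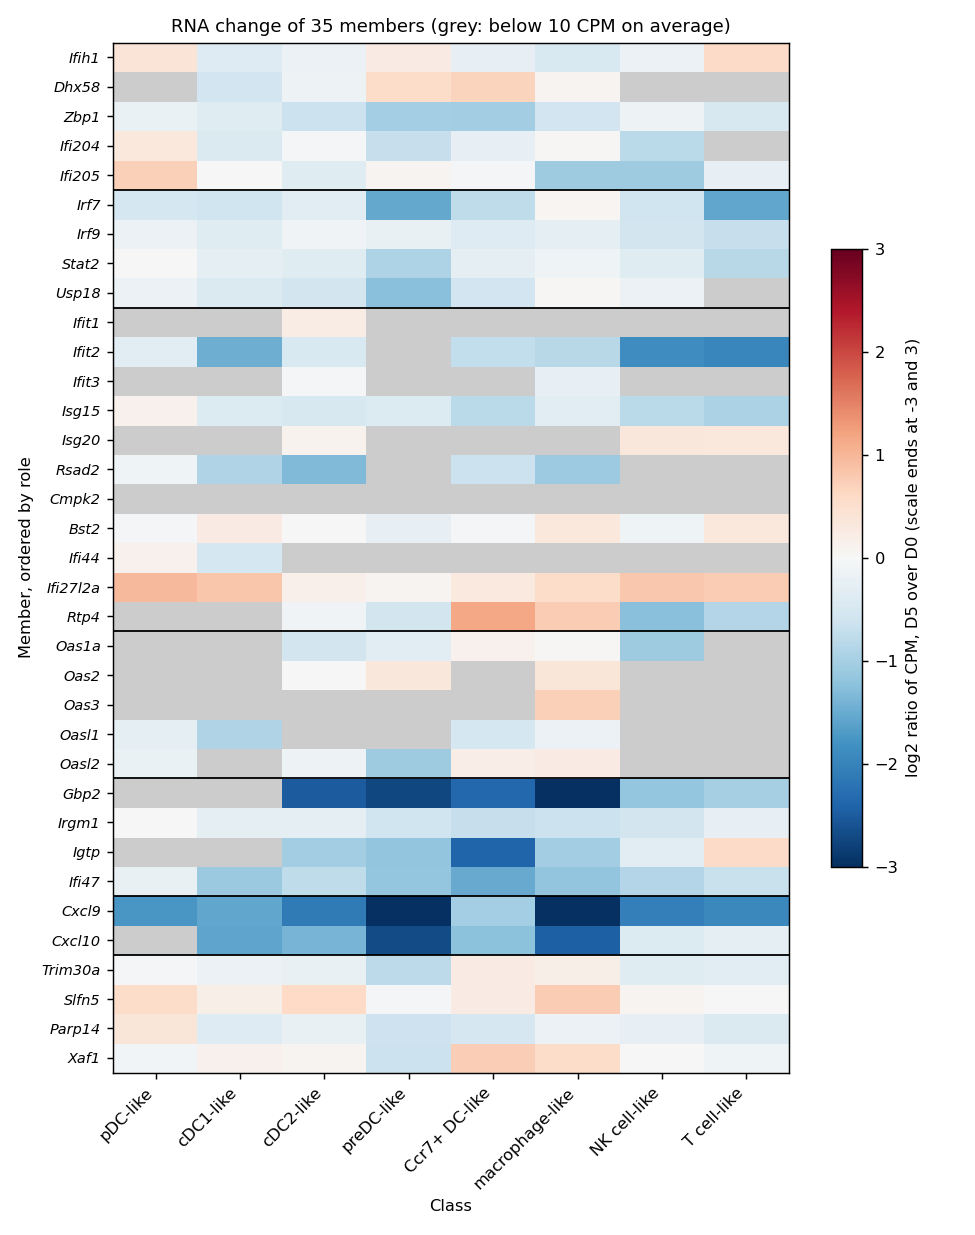
Log2 ratio of CPM, D5 over D0, for the 35 members (rows, grouped by role between black lines) in 8 classes (columns), with blue for lower and red for higher at D5 and grey for members under 10 CPM on average. The bluest block is Gbp2, Igtp, Ifi47, Cxcl9 and Cxcl10, while Ifi27l2a is the only member that is red or pale red across all 8 classes.

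CXCL9 and CXCL10 bind CXCR3 and attract activated T and NK cells. Cxcl9 was lower at D5 in all 8 classes. In macrophage-like nuclei it stood at 256 CPM at D0 (95% interval 232 to 283) against 19.9 at D5 (15.6 to 24.98), a log2 ratio of -3.69 (95% interval -4.07 to -3.33). In cDC2-like nuclei it stood at 151 CPM at D0 against 34.7 at D5 (log2 ratio -2.12, 95% interval -2.29 to -1.95), and in cDC1-like nuclei at 148 CPM at D0 against 50.1 at D5 (log2 ratio -1.56, 95% interval -1.74 to -1.38). At D0 macrophage-like nuclei were thus the highest of the 8 classes and at D5 they were below the Ccr7+ DC-like nuclei and both conventional classes. Ccr7+ DC-like nuclei, at 164 CPM at D0 against 80.4 at D5, had the smallest difference (log2 ratio -1.03, 95% interval -1.36 to -0.68) and the highest level at D5. In preDC-like nuclei the values were 135 CPM at D0 against 15.4 at D5. In pDC-like nuclei Cxcl9 was at 27.7 CPM at D0 against 8.23 at D5, where the Ifng gauge puts free RNA at up to 17.7 and 1.91 CPM and the NK cell markers at up to 15.3 and 4.36 CPM. The free RNA itself held Cxcl9 at 92.4 CPM at D0 against 13.6 at D5, and its part in the low pDC-like, NK cell-like and T cell-like values (39.8 and 52.6 CPM at D0 in the last 2) was not tested. At D5 those last 2 stood at 9.61 and 13.7 CPM.

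Cxcl10 was lower at D5 in 5 of the 7 classes in which it entered. In cDC2-like nuclei, its highest class at D0, it stood at 100.2 CPM at D0 against 37.9 at D5 (log2 ratio -1.40, 95% interval -1.59 to -1.21). In macrophage-like nuclei it stood at 79.4 CPM at D0 against 14.4 at D5 (log2 ratio -2.46, 95% interval -2.95 to -1.98), and in preDC-like nuclei at 82.3 CPM at D0 against 12.9 at D5 (log2 ratio -2.68, 95% interval -3.37 to -1.97). The order of the classes at D5 was therefore another than at D0. NK cell-like (41.2 CPM) and cDC2-like nuclei stood at the top and macrophage-like nuclei among the low ones. After thinning to equal depth, as described below, Cxcl10 was seen at D5 in 29 of 1103 NK cell-like and 88 of 5549 cDC2-like nuclei. At D0 it was seen in 49 of 1449 and 76 of 1766. The order at D5 thus rested on few nuclei, and the 95% intervals hold no spread between nuclei. In NK cell-like nuclei, at 55.1 CPM at D0 against 41.2 at D5, the difference stayed under 1.5-fold (log2 ratio -0.42, 95% interval -0.84 to -0.01). Its levels at D0 and D5 were 9.24 and 9.82 CPM in pDC-like, 36.9 and 12.4 CPM in cDC1-like, 58.4 and 25.04 CPM in Ccr7+ DC-like and 22.2 and 18.3 CPM in T cell-like nuclei. Free RNA held Cxcl10 at 67.001 CPM at D0 against 23.2 at D5. The Ifng gauge puts it at up to 12.8 and 3.26 CPM in a class, above the pDC-like level at D0, and the NK cell markers at up to 11.1 and 7.45 CPM.

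**Figure D2:**
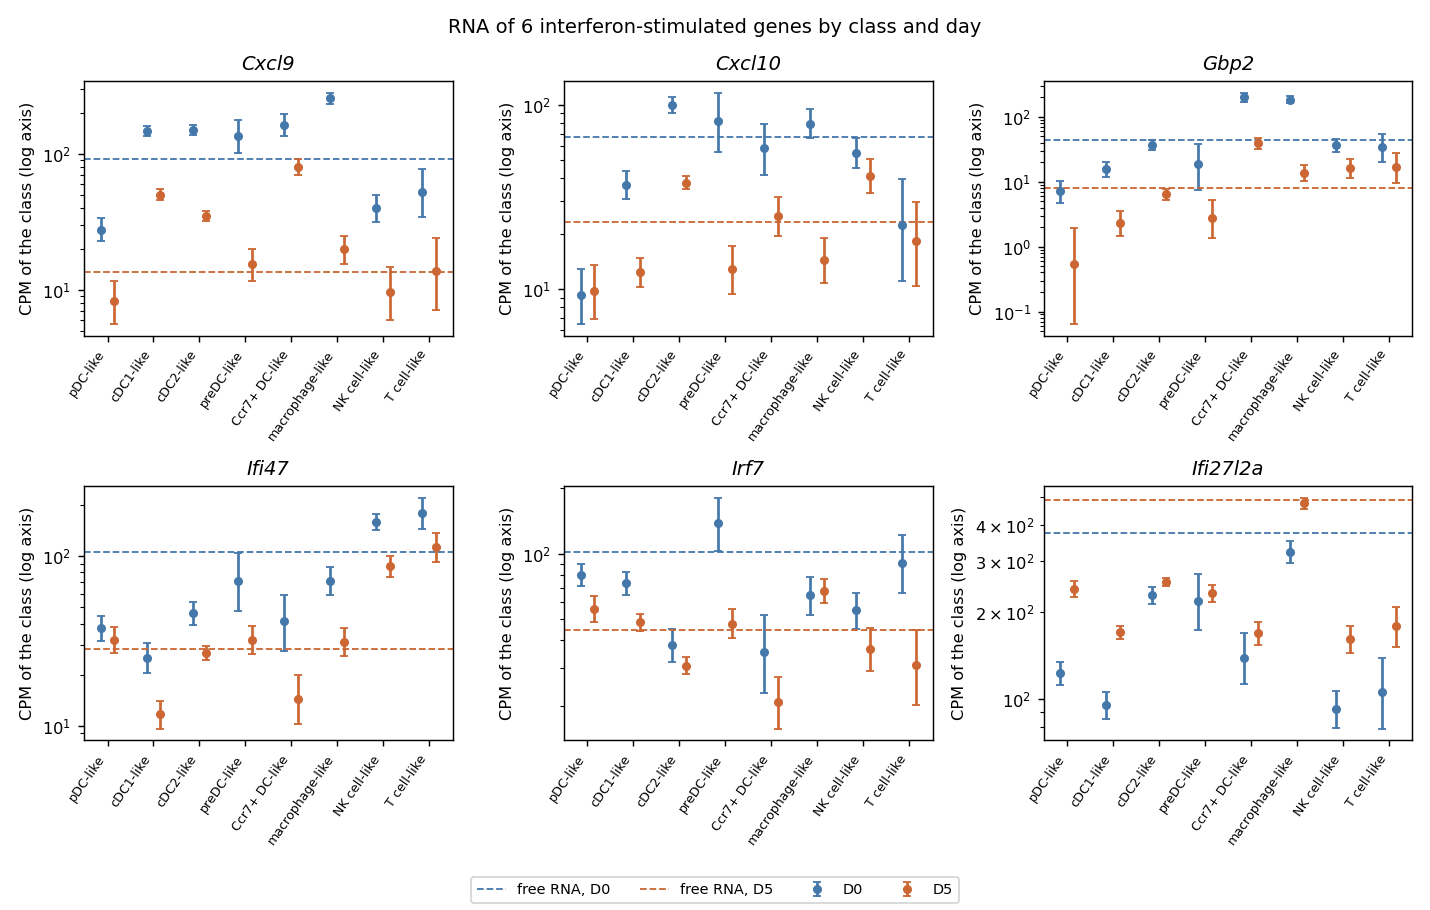
RNA level (CPM of the class, log axis) of Cxcl9, Cxcl10, Gbp2, Ifi47, Irf7 and Ifi27l2a in 8 classes at D0 (blue) and D5 (orange), with exact Poisson 95% intervals as bars and the free RNA level of each day as dashed lines. Cxcl9 is lower at D5 in every class, and Irf7 of macrophage-like nuclei is alike on both days. Ifi27l2a lies above its D0 level in every class but past 1.5-fold in only 4 of the 8.

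The guanylate-binding proteins and the immunity-related GTPases coat and break the vacuoles of intracellular pathogens. Gbp2 had the lowest median ratio of all members (-2.43 over 6 classes). It stood at 201 CPM at D0 (95% interval 169 to 237) against 39.1 at D5 (31.9 to 47.4) in Ccr7+ DC-like nuclei and at 185 CPM at D0 (95% interval 164 to 208) against 13.9 at D5 (10.3 to 18.2) in macrophage-like nuclei. The log2 ratios were -2.36 (95% interval -2.74 to -1.98) and -3.73 (-4.19 to -3.30). The 2 classes were level at D0 within these intervals, and at D5 the Ccr7+ DC-like level was the higher, with intervals that do not overlap. In NK cell-like nuclei Gbp2 was at 36.9 CPM at D0 against 16.5 at D5 and in T cell-like nuclei at 34.4 CPM at D0 against 17.1 at D5. The remaining dendritic classes had 7.19 and 0.531 CPM in pDC-like, 15.8 and 2.35 CPM in cDC1-like, 36.7 and 6.48 CPM in cDC2-like and 18.6 and 2.80 CPM in preDC-like nuclei. The pDC-like level was below what free RNA could give by the Ifng gauge (8.41 and 1.12 CPM) on both days and by the NK cell markers (7.28 and 2.55 CPM).

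Ifi47 (IRG-47) was lower in 7 of 8 classes. In T cell-like nuclei, where it was highest, it stood at 180.0 CPM at D0 against 113 at D5 (log2 ratio -0.67, 95% interval -1.10 to -0.24), and in NK cell-like nuclei at 159 CPM at D0 against 86.9 at D5 (log2 ratio -0.87, 95% interval -1.14 to -0.61). In Ccr7+ DC-like nuclei it stood at 41.3 CPM at D0 against 14.4 at D5 (log2 ratio -1.52, 95% interval -2.25 to -0.77). The exception was the pDC-like class, at 37.5 CPM at D0 against 32.1 at D5 (log2 ratio -0.22, 95% interval -0.58 to 0.13). The other classes had 25.1 and 11.6 CPM in cDC1-like, 45.9 and 26.9 CPM in cDC2-like, 71.7 and 32.2 CPM in preDC-like and 71.5 and 31.3 CPM in macrophage-like nuclei. Free RNA held Ifi47 at 106 CPM at D0 against 28.5 at D5, Gbp2 at 43.9 CPM at D0 against 7.95 at D5 and Igtp at 34.7 CPM at D0 against 13.9 at D5. For Ifi47 the Ifng gauge allows up to 20.4 and 4.01 CPM in a class and the NK cell markers up to 17.6 and 9.15 CPM, against a pDC-like level of 37.5 and 32.1 CPM. The part of free RNA in that direction was not tested. Igtp (Irgm3) was lower in 4 of the 6 classes it entered, none of them lymphocytes. These were Ccr7+ DC-like nuclei (19.9 and 3.79 CPM), preDC-like (15.9 and 6.99 CPM), macrophage-like (27.3 and 13.3 CPM) and cDC2-like nuclei (18.2 and 8.80 CPM). In NK cell-like nuclei Igtp was at 62.9 CPM at D0 against 49.9 at D5 (log2 ratio -0.34, 95% interval -0.72 to 0.04) and in T cell-like nuclei at 38.4 CPM at D0 against 57.05 at D5 (log2 ratio 0.57, 95% interval -0.22 to 1.42), both within 1.5-fold. It did not enter in pDC-like (8.73 and 5.31 CPM) or cDC1-like nuclei (12.6 and 7.26 CPM). Reads of Igtp and of its neighbour Irgm2, a near copy, may be split between the 2 genes. Irgm1 was lower in the preDC-like, Ccr7+ DC-like and macrophage-like classes only, with log2 ratios of -0.60, -0.69 and -0.66, and stood at 25.2 CPM at D0 against 25.2 at D5 in pDC-like nuclei.

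To look at single nuclei at equal depth, each was thinned to 1000 UMIs. Cxcl9 was then seen in 12.6% of nuclei at D0 (95% interval 10.3 to 15.2) and 1.04% at D5 (0.557 to 1.78) in the macrophage-like class, in 7.27% of nuclei at D0 (95% interval 6.06 to 8.65) and 2.81% at D5 (2.24 to 3.48) in the cDC1-like class and in 6.06% of nuclei at D0 (95% interval 4.99 to 7.27) and 1.55% at D5 (1.24 to 1.91) in the cDC2-like class. In the pDC-like class, taken as the background (medians of 1540 and 1738 UMIs before thinning, against 1823 and 2653 in the macrophage-like class), the shares were 2.44% and 0.794%. At D5 the interval of the macrophage-like share overlapped that of the background (0.455 to 1.29). The class level at D5 without thinning was still above it, at 19.9 CPM (15.6 to 24.98) against 8.23 CPM (5.59 to 11.7). Gbp2 was seen in 15.8% of nuclei at D0 (95% interval 11.9 to 20.3) and 3.60% at D5 (2.51 to 4.997) in the Ccr7+ DC-like class and in 11.4% of nuclei at D0 (95% interval 9.25 to 13.9) and 1.12% at D5 (0.616 to 1.88) in the macrophage-like class, against 0.728% and 0.0993% of pDC-like nuclei. Fewer nuclei with the transcript went with the lower class level of both genes. At this depth such nuclei held few UMIs each, so the share largely restates the level and is no separate result. Gbp2 had 67 UMIs in 50 Ccr7+ DC-like nuclei at D0 and 35 in 34 at D5. Cxcl9 had 181 UMIs in 96 macrophage-like nuclei at D0 and 21 in 13 at D5. For all members together, the share of nuclei with 5 or more member UMIs was 15.7% (13.2 to 18.5) at D0 and 12.1% (10.4 to 14.1) at D5 in macrophage-like nuclei, 16.8% (12.01 to 22.6) and 7.83% (6.44 to 9.40) in preDC-like, 7.26% (4.65 to 10.7) and 2.75% (1.81 to 4.01) in Ccr7+ DC-like and 7.08% (5.93 to 8.38) and 4.99% (4.43 to 5.60) in cDC2-like nuclei. It was 7.07% (6.06 to 8.19) and 6.26% (5.24 to 7.40) in pDC-like nuclei. The variance of member UMIs over their mean, which is 1 for nuclei that differ by counting alone, was 3.54 at D0 and 1.74 at D5 in cDC1-like nuclei, 4.08 and 2.93 in cDC2-like, 2.82 and 1.53 in preDC-like, 5.48 and 3.69 in Ccr7+ DC-like, 3.33 and 1.94 in macrophage-like and 1.74 and 1.48 in NK cell-like nuclei. Member transcripts were thus less evenly spread over nuclei at D0 than at D5 in these 6 classes. The ratio was 1.33 and 1.33 in T cell-like nuclei and 1.58 and 1.78 in pDC-like nuclei. Thinned to 2000 UMIs, which leaves fewer nuclei, it was 2.18 and 1.57 in T cell-like and 3.62 and 3.52 in pDC-like nuclei. These 2 exceptions thus depended on the depth of thinning. Without thinning, the class levels of all 35 members summed to 2614 and 2266 CPM in macrophage-like nuclei and to 1871 and 1934 CPM in pDC-like nuclei.

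The genes that send and carry the signal were looked at from a separate list. Ifng was at 554 CPM at D0 against 138 at D5 in NK cell-like nuclei (log2 ratio -2.00, 95% interval -2.19 to -1.82) and at 588 CPM at D0 against 107 at D5 in T cell-like nuclei (log2 ratio -2.46, 95% interval -2.81 to -2.12). In nuclei thinned to 1000 UMIs it was seen in 28.02% of nuclei at D0 (95% interval 25.7 to 30.4) and 10.2% at D5 (8.52 to 12.2) of the NK cell-like class and in 26.8% of nuclei at D0 (95% interval 22.2 to 31.8) and 9.01% at D5 (6.48 to 12.1) of the T cell-like class, against at most 3.85% in the dendritic and macrophage-like classes at D0. NK cell-like nuclei were also a smaller share of the library at D5, 5.56% against 13.2%. The transcripts of interferon-γ were therefore lower at D5 in both of these classes, which share NK cell markers. A further cluster of 583 nuclei at D0 and 86 at D5, with Ifng among its leading genes, was left unnamed and is in neither. It carried all 8 NK cell markers but also 5 of the 7 cDC1 markers, with a median of 3319 UMIs against 1411 in the NK cell-like class, so it was not read as NK cells, and whether it holds doublets was not tested. The 20 genes of the type I and type III interferons together had 17 UMIs at D0 and 6 at D5 in pDC-like nuclei and at most 26 in any other class, too few for a comparison. Of the receptors, Ifnar1 and Ifnar2 were lower in 1 class each and Ifngr1 and Ifngr2 higher in 1 class each of 8, and Ifnlr1, the receptor for interferon-λ, entered no class.

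Irf1, a transcription factor of the interferon-γ response, was lower at D5 in 7 of 8 classes, with preDC-like nuclei at 287 CPM at D0 against 102 at D5 (log2 ratio -1.49, 95% interval -1.81 to -1.17). The exception was the pDC-like class, at 471 CPM at D0 against 363 at D5. Among 23 further genes known to be driven by interferon-γ (other GTPases and antigen-processing genes), 13 of the 17 that entered were lower in macrophage-like nuclei (all genes 19.2%), 8 of 13 in Ccr7+ DC-like (15.8%), 7 of 11 in preDC-like (21.5%), and 6 of 11 in cDC2-like (11.8%). The count was 5 of 11 in pDC-like (6.91%), 3 of 9 in cDC1-like (15.5%), 7 of 16 in NK cell-like (14.3%) and 7 of 16 in T cell-like nuclei (21.0%). Of these genes 1 was higher in NK cell-like nuclei and 0 in the other 7 classes. Gbp4 was at 74.2 CPM at D0 against 8.98 at D5 in macrophage-like nuclei (log2 ratio -3.05, 95% interval -3.65 to -2.48), and Iigp1, another immunity-related GTPase, at 57.9 CPM at D0 against 1.63 at D5 (log2 ratio -5.15, 95% interval -6.63 to -3.97). Ciita, the master regulator of MHC class II, and Psmb8, an immunoproteasome subunit, were within 1.5-fold in all 8 classes. Among 15 upstream genes of nucleic acid sensing, 3 of the 12 that entered were lower in preDC-like nuclei (all genes 21.5%), 2 of 14 in macrophage-like (19.2%), 2 of 12 in NK cell-like (14.3%) and 2 of 12 in T cell-like nuclei (21.0%). In pDC-like nuclei 0 of 10 were lower (6.91%), with 1 of 11 in cDC1-like (15.5%), 1 of 12 in cDC2-like (11.8%) and 1 of 10 in Ccr7+ DC-like nuclei (15.8%). Higher were 2 in cDC1-like (all genes 4.06%), 1 in cDC2-like (3.59%), 1 in Ccr7+ DC-like (8.85%), 1 in T cell-like (10.7%) and 0 in the other classes. Tlr3, which senses double-stranded RNA, was lower in 5 of 7 classes, with cDC1-like nuclei, its main site, at 274 CPM at D0 against 171 at D5 (log2 ratio -0.68, 95% interval -0.79 to -0.57). The cDC1-like class joined clusters of 1041 and 581 nuclei at D0 and of 2351 and 532 at D5, and Tlr3 was a leading gene of the smaller one. Tbk1, the kinase that activates IRF3, was lower in 2 of 8, while Tmem173 (STING) and Myd88 were higher in 2 of 8 each. In the receptor signalling list, Irf2 and the phosphatase gene Ptpn6 were within 1.5-fold in all 8 classes.

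Among the members that carry or limit the signal, Irf7, the amplifier of type I interferon transcription, was lower in 5 of 8 classes. In preDC-like nuclei it stood at 138 CPM at D0 against 47.8 at D5 (log2 ratio -1.53, 95% interval -1.99 to -1.05) and in T cell-like nuclei at 90.99 CPM at D0 against 30.8 at D5 (log2 ratio -1.56, 95% interval -2.31 to -0.84). In macrophage-like nuclei it did not differ beyond counting error, at 64.4 CPM at D0 against 67.5 at D5 (log2 ratio 0.07, 95% interval -0.27 to 0.42). In pDC-like nuclei, where IRF7 is held ready for interferon production, it was at 80.1 CPM at D0 against 55.8 at D5, just inside 1.5-fold (log2 ratio -0.52, 95% interval -0.78 to -0.27). The remaining classes had 73.3 and 48.5 CPM in cDC1-like, 38.1 and 30.6 CPM in cDC2-like, 35.6 and 20.9 CPM in Ccr7+ DC-like and 55.1 and 36.6 CPM in NK cell-like nuclei. Stat2 was at 245 CPM at D0 against 243 at D5 in pDC-like nuclei, its highest class, with an interval of the log2 ratio that includes 0 (log2 ratio -0.02, 95% interval -0.15 to 0.12), and lower past 1.5-fold only in preDC-like (194 and 102 CPM) and T cell-like nuclei (30.3 and 17.1 CPM). Elsewhere Stat2 had 138 and 115 CPM in cDC1-like, 73.3 and 57.3 CPM in cDC2-like, 76.9 and 63.8 CPM in Ccr7+ DC-like, 91.1 and 82.7 CPM in macrophage-like and 43.8 and 33.9 CPM in NK cell-like nuclei. Irf9, the DNA-binding partner of STAT2, was below its D0 level in all 8 classes but past 1.5-fold only in T cell-like nuclei (log2 ratio -0.69, 95% interval -1.45 to 0.08). Usp18, which removes ISG15 from proteins and dampens the type I receptor, was past 1.5-fold in preDC-like nuclei alone (18.6 and 7.83 CPM).

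Of the effectors, Rsad2 (viperin, an antiviral enzyme that makes a chain-terminating nucleotide) was lower in 4 of 5 classes. In cDC2-like nuclei it stood at 29.7 CPM at D0 against 11.9 at D5 (log2 ratio -1.32, 95% interval -1.67 to -0.96) and in macrophage-like nuclei at 68.9 CPM at D0 against 32.4 at D5 (log2 ratio -1.09, 95% interval -1.48 to -0.70). Ccr7+ DC-like nuclei had the highest level on both days, among 13.9 and 12.7 CPM in pDC-like, 15.2 and 8.22 CPM in cDC1-like, 76.9 and 49.3 CPM in Ccr7+ DC-like, 10.6 and 4.19 CPM in preDC-like, 13.8 and 4.12 CPM in NK cell-like and 8.09 and 2.28 CPM in T cell-like nuclei. Ifit2, of the family that binds foreign RNA ends, was lower in 5 of 7 classes, with NK cell-like nuclei at 25.1 CPM at D0 against 6.86 at D5 (log2 ratio -1.87, 95% interval -2.81 to -1.02) and cDC1-like nuclei at 19.8 CPM at D0 against 7.15 at D5 (log2 ratio -1.47, 95% interval -1.97 to -0.97). Ifit2 was otherwise measured at 13.4 and 10.6 CPM in pDC-like, 30.2 and 22.2 CPM in cDC2-like, 5.31 and 5.03 CPM in preDC-like, 18.5 and 11.005 CPM in Ccr7+ DC-like, 33.8 and 19.1 CPM in macrophage-like and 22.2 and 5.70 CPM in T cell-like nuclei. Its relatives were sparse: Ifit1 entered only in cDC2-like nuclei, at 10.1 CPM at D0 against 11.7 at D5, and Ifit3, whose reads may be split with its near copy Ifit3b, only in cDC2-like and macrophage-like nuclei, with log2 ratios of -0.06 and -0.26. Isg15, a ubiquitin-like modifier, was lower in Ccr7+ DC-like (96.8 and 55.02 CPM), NK cell-like (86.1 and 49.4 CPM) and T cell-like nuclei (76.8 and 39.9 CPM), and in pDC-like nuclei it was at 21.1 CPM at D0 against 23.1 at D5 (log2 ratio 0.13, 95% interval -0.32 to 0.59). Cmpk2, a mitochondrial nucleotide kinase beside Rsad2 in the genome, entered no class, and Isg20, an exonuclease, entered 3 and was within 1.5-fold in all of them.

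Ifi27l2a, a small membrane protein of unclear function in these cells, went the other way. It was higher at D5 in pDC-like nuclei (122 and 240.0 CPM, log2 ratio 0.97, 95% interval 0.81 to 1.14), in cDC1-like nuclei (94.7 and 169 CPM, log2 ratio 0.84, 95% interval 0.67 to 1.01), in NK cell-like (91.96 and 161 CPM) and in T cell-like nuclei (105 and 178 CPM). Its highest class on both days was the macrophage-like one, at 321 CPM at D0 against 474 at D5 (log2 ratio 0.56, 95% interval 0.41 to 0.71). The differences were smaller elsewhere, with 228 and 253 CPM in cDC2-like, 218 and 231 CPM in preDC-like and 138 and 168 CPM in Ccr7+ DC-like nuclei. Free RNA held it at 374 CPM at D0 against 485 at D5, above every class on both days, and thus also higher at D5. The Ifng gauge puts free RNA at up to 71.7 and 68.3 CPM of it in a class and the NK cell markers at up to 62.1 and 156 CPM. The part of free RNA in its higher level at D5 was not tested. Bst2 (tetherin, which holds budding virus at the cell surface) was within 1.5-fold in all 8 classes, with 820.3 and 693 CPM in preDC-like, 544 and 528 CPM in pDC-like, 129 and 153 CPM in cDC1-like, 144 and 146 CPM in cDC2-like, 128 and 126 CPM in Ccr7+ DC-like, 144 and 179.9 CPM in macrophage-like, 124 and 114 CPM in NK cell-like and 99.1 and 123 CPM in T cell-like nuclei. Rtp4, a chaperone that also limits viral replication, had opposite directions, higher in macrophage-like (60.5 and 102 CPM) and Ccr7+ DC-like nuclei (8.54 and 18.97 CPM) and lower in NK cell-like (41.3 and 17.4 CPM) and T cell-like nuclei (58.6 and 31.9 CPM). Ifi44 entered only in pDC-like (30.6 and 33.5 CPM) and cDC1-like nuclei (12.04 and 8.33 CPM) and was within 1.5-fold in both. In the other classes it had at most 5.69 CPM on either day.

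Of the sensors, Zbp1, which detects Z-form nucleic acid and can start necroptosis, was lower in 3 of 8 classes: cDC2-like (42.8 and 27.4 CPM), preDC-like (23.9 and 11.7 CPM, from 9 UMIs at D0) and Ccr7+ DC-like nuclei (41.3 and 20.1 CPM). Its direction in preDC-like nuclei turned when nuclei were thinned to 1000 UMIs, which left 1 UMI at D0. The classes within 1.5-fold had 13.6 and 11.9 CPM in pDC-like, 24.1 and 18.8 CPM in cDC1-like, 65.7 and 44.4 CPM in macrophage-like, 37.9 and 34.3 CPM in NK cell-like and 50.5 and 36.5 CPM in T cell-like nuclei. Ifih1 (MDA5), the sensor of long double-stranded RNA, was within 1.5-fold in all 8 classes. Its relative Dhx58 (LGP2) passed 1.5-fold only in Ccr7+ DC-like nuclei (9.97 and 15.9 CPM, log2 ratio 0.68, 95% interval -0.49 to 2.08). Ifi205 was unlike the others in its pattern, with cDC1-like nuclei far above the rest at 270.4 CPM at D0 against 271 at D5, pDC-like nuclei at 16.9 CPM at D0 against 27.9 at D5 and macrophage-like nuclei at 49.4 CPM at D0 against 23.7 at D5. The Ifng gauge puts free RNA of Ifi205 at up to 16.4 and 6.75 CPM, hardly below its pDC-like level at D0, and the NK cell markers put it at up to 14.2 and 15.4 CPM. Ifi204 was highest in macrophage-like nuclei, at 146 CPM at D0 against 151 at D5. Both belong to the IFI200 family of DNA-binding proteins, whose close copies may share reads.

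The oligoadenylate synthetases make the messenger that activates RNase L. They were past 1.5-fold in few classes: Oas1a (a gene with close copies) was lower in NK cell-like nuclei (22.1 and 10.5 CPM), Oasl1 in cDC1-like (16.3 and 8.75 CPM) and Oasl2 in preDC-like nuclei (39.8 and 19.02 CPM), and Oas3 was higher in macrophage-like nuclei (9.11 and 14.97 CPM, log2 ratio 0.72, 95% interval -0.15 to 1.68). Oas2 was within 1.5-fold in the 3 classes it entered, with macrophage-like nuclei at 39.03 CPM at D0 against 50.1 at D5. In macrophage-like nuclei the 5 synthetases summed to 162 and 186 CPM at D0 and D5, whereas the 2 chemokines summed to 336 and 34.3 CPM in the same nuclei. Of the regulators, Slfn5, a restrictor of viral transcription, was higher in macrophage-like (92.4 and 157 CPM, log2 ratio 0.77, 95% interval 0.50 to 1.04) and cDC2-like nuclei (92.4 and 139 CPM, log2 ratio 0.59, 95% interval 0.42 to 0.76). Trim30a, a brake on TLR signalling whose reads may be split with Trim30d, and Parp14 and Xaf1 were lower in preDC-like nuclei alone, and Xaf1 was higher in Ccr7+ DC-like nuclei (14.2 and 23.9 CPM).

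On each day, classes were also set against the cDC1-like and cDC2-like nuclei as one group, with 2-fold as the limit. The UMIs of both were summed, 3738280 cDC1-like and 3572980 cDC2-like at D0 and 9366250 and 15904800 at D5. The mix of the group thus differed between the days. In pDC-like nuclei 3 of 29 members at D0 (all genes 16.3%) and 3 of 26 at D5 (19.2%) were higher, the same 3 on both days: Bst2, Stat2 and Ifi44. Bst2 stood at 544 against 137 CPM at D0 (log2 ratio 1.99, 95% interval 1.88 to 2.10), Stat2 at 245 against 106 CPM (log2 ratio 1.20, 95% interval 1.07 to 1.34) and Ifi44 at 30.6 against 7.52 CPM (log2 ratio 2.02, 95% interval 1.55 to 2.51). At D5 the values were 528 against 149 CPM for Bst2, 243 against 78.8 CPM for Stat2 and 33.5 against 4.27 CPM for Ifi44. Bst2 is the antigen by which mouse pDCs are often recognised. Lower in pDC-like nuclei were 11 members at D0 (all genes 12.5%) and 8 at D5 (10.6%), and 8 were lower on both days: Dhx58, Zbp1, Ifi205, Rtp4, Oas1a, Cxcl9, Cxcl10 and Slfn5. Without removal of doublets, 1 member instead of 8 was lower at D5. The median log2 ratio of the members was -0.81 at D0 and -0.33 at D5, against 0.13 and 0.17 over all genes.

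Macrophage-like nuclei were higher than the conventional dendritic classes in 10 of 30 members at D0 (all genes 6.38%) and in 10 of 31 at D5 (5.07%), with 8 on both days: Ifi204, Ifit3, Rsad2, Ifi27l2a, Rtp4, Oas2, Oasl1 and Oasl2. Ifi204 stood at 146 against 22.8 CPM at D0 and 151 against 20.5 CPM at D5, and Oas2 at 39.03 against 14.6 CPM and 50.1 against 18.2 CPM. Gbp2 was higher there at D0 as well (185 against 25.99 CPM). Ccr7+ DC-like nuclei were higher in 3 of 28 members at D0 and 3 of 29 at D5 (all genes 9.12% and 8.09%), about the share of all genes. These were Rsad2, Oasl1 and Gbp2 both times, with Gbp2 at 201 against 25.99 CPM at D0 and 39.1 against 4.95 CPM at D5. They were lower in 6 at D0 (all genes 14.5%) and 3 at D5 (9.45%), with Ifi205 and Slfn5 on both days. NK cell-like nuclei were higher in 2 of 29 at D0 (all genes 14.3%) and 3 of 27 at D5 (12.7%), with Igtp and Ifi47 on both days, Igtp at 62.9 against 15.3 CPM at D0 and 49.9 against 8.23 CPM at D5. They were lower in 7 at D0 (all genes 13.3%) and 9 at D5 (11.4%), and 7 were lower on both days: Dhx58, Ifi205, Stat2, Usp18, Oasl2, Cxcl9 and Slfn5. Macrophage-like nuclei were lower in 1 at D0 (5.18%) and 2 at D5 (3.38%), Ifi205 both times. The joined group held Ifi205 at 156 CPM at D0 and 118 at D5, against 270.4 and 271 CPM in cDC1-like nuclei alone. Wherever Ifi205 was counted as lower, it was thus against a level raised by cDC1-like nuclei. A comparison with cDC2-like nuclei alone was not made.

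**Figure D3:**
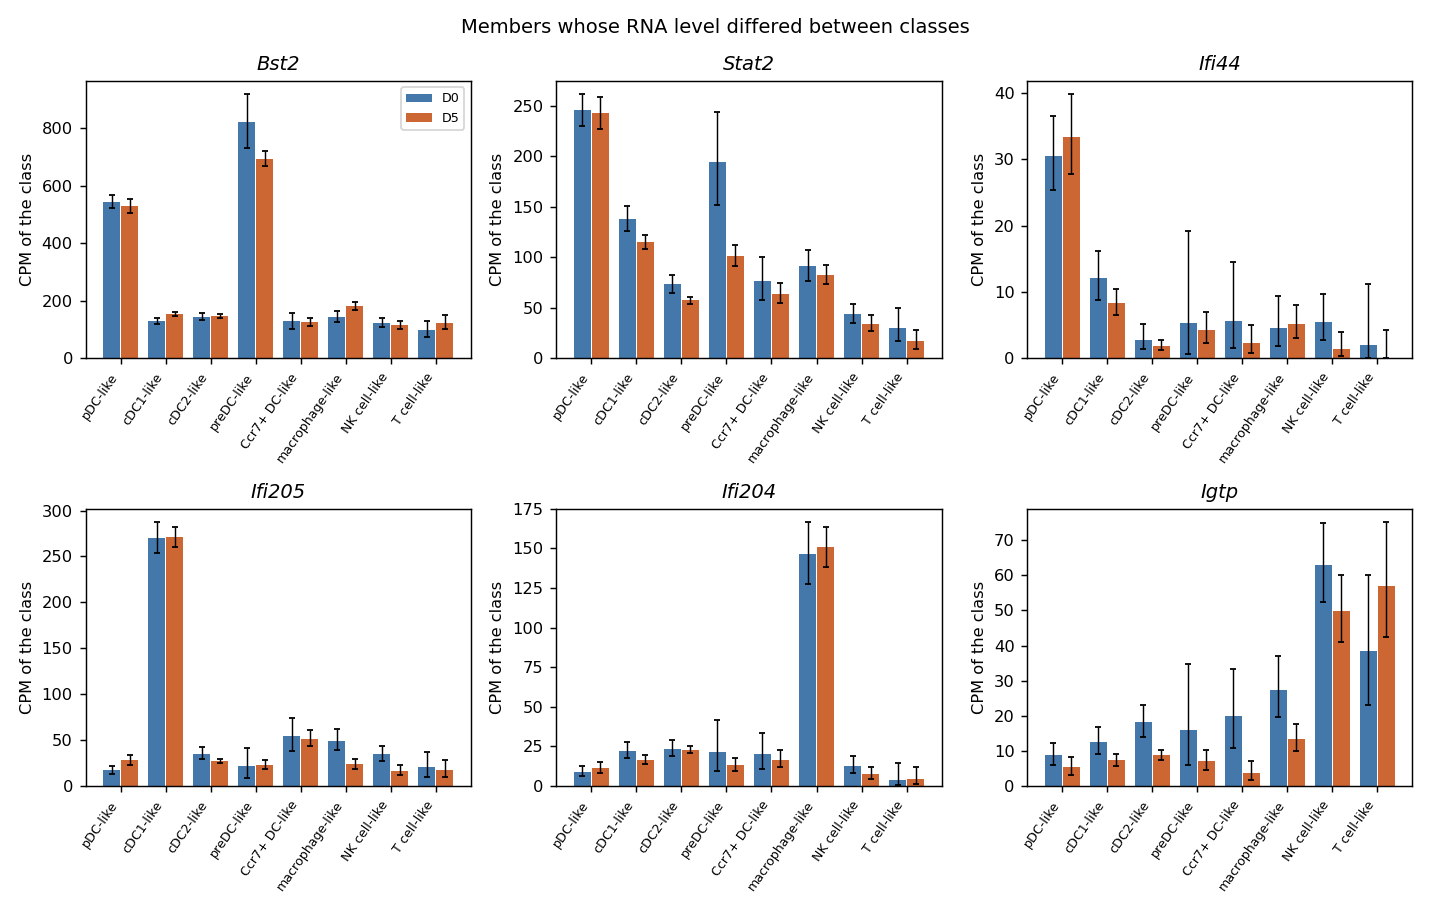
RNA level (CPM of the class, linear axis from 0) of Bst2, Stat2, Ifi44, Ifi205, Ifi204 and Igtp in 8 classes at D0 (blue) and D5 (orange), with exact Poisson 95% intervals as error bars. Bst2, Stat2 and Ifi44 are highest in pDC-like or preDC-like nuclei, Ifi205 in cDC1-like, Ifi204 in macrophage-like and Igtp in NK cell-like or T cell-like nuclei.

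Chromatin was compared by the fragments in shared regions within 2 kb of the start site or span of start sites, per 1000000 fragments of the class. Members with 20 or more fragments on average entered. For Rtp4 and Ifi47 the fragments include regions inside their long spans. At D5, 1.5-fold lower accessibility was found for 4 of 31 in pDC-like nuclei (all genes 3.6%), 2 of 33 in cDC1-like (3.56%), and 2 of 34 in cDC2-like nuclei (4.79%). It was found for 7 of 28 in preDC-like (4.84%), 3 of 30 in Ccr7+ DC-like (3.08%), 5 of 32 in macrophage-like (2.91%), 2 of 29 in NK cell-like (2.71%) and 3 of 25 in T cell-like nuclei (2.71%). These counts were below those of RNA in 7 of the 8 classes and above in pDC-like nuclei. The shares of all genes were smaller too, at 2.71% to 4.84% against 6.91% to 21.5% for RNA, so the raw counts stand on unlike backgrounds. In preDC-like nuclei 4 of the 7 (Rsad2, Gbp2, Trim30a and Xaf1) had an interval that includes 0. Higher accessibility was found for 2 members in preDC-like nuclei (Ifih1 and Oas2, all genes 5.33%), 1 in Ccr7+ DC-like (Ifi204, 2.54%), 1 in macrophage-like (Oas2, 1.59%) and 1 in T cell-like nuclei (Ifih1, 1.89%). It was found for 0 members in pDC-like (0.349%), cDC1-like (0.596%), cDC2-like (1.06%) and NK cell-like nuclei (2.01%). Of the higher ones only Oas2 in macrophage-like nuclei had an interval that excludes 0. The medians of the members lay between -0.16 and 0.03 in the 8 classes. In macrophage-like nuclei accessibility was lower at Cxcl9 (10.6 and 3.57 CPM of fragments, log2 ratio -1.57, 95% interval -2.60 to -0.62) and at Gbp2 (29.2 and 11.97 CPM, log2 ratio -1.29, 95% interval -1.83 to -0.76), and at Cxcl10 the log2 ratio was -0.63 (95% interval -1.18 to -0.07). In cDC2-like nuclei it was lower at Cxcl9 (log2 ratio -0.83, 95% interval -1.41 to -0.24) and Gbp2 (log2 ratio -0.66, 95% interval -0.99 to -0.33). The members with the lowest RNA ratios in these 2 classes were thus also those with the lowest accessibility ratios. Over members, the correlation between the 2 log2 ratios was r = 0.74 (Spearman's rho 0.56, 29 members) in macrophage-like and r = 0.56 (rho 0.29, 31 members) in cDC2-like nuclei, and r = -0.20 (22 members) in pDC-like nuclei. In the other 5 classes r was 0.35 in cDC1-like (24 members), 0.30 in preDC-like (22), 0.09 in NK cell-like (21), 0.04 in T cell-like (18) and -0.08 in Ccr7+ DC-like nuclei (26). Both ratios come from the same nuclei and members are not independent, so no p is given. In Ccr7+ DC-like nuclei Gbp2 was at 22.4 and 25.2 CPM of fragments (log2 ratio 0.17, 95% interval -0.46 to 0.84), with no lower accessibility beside its lower RNA.

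**Figure D4:**
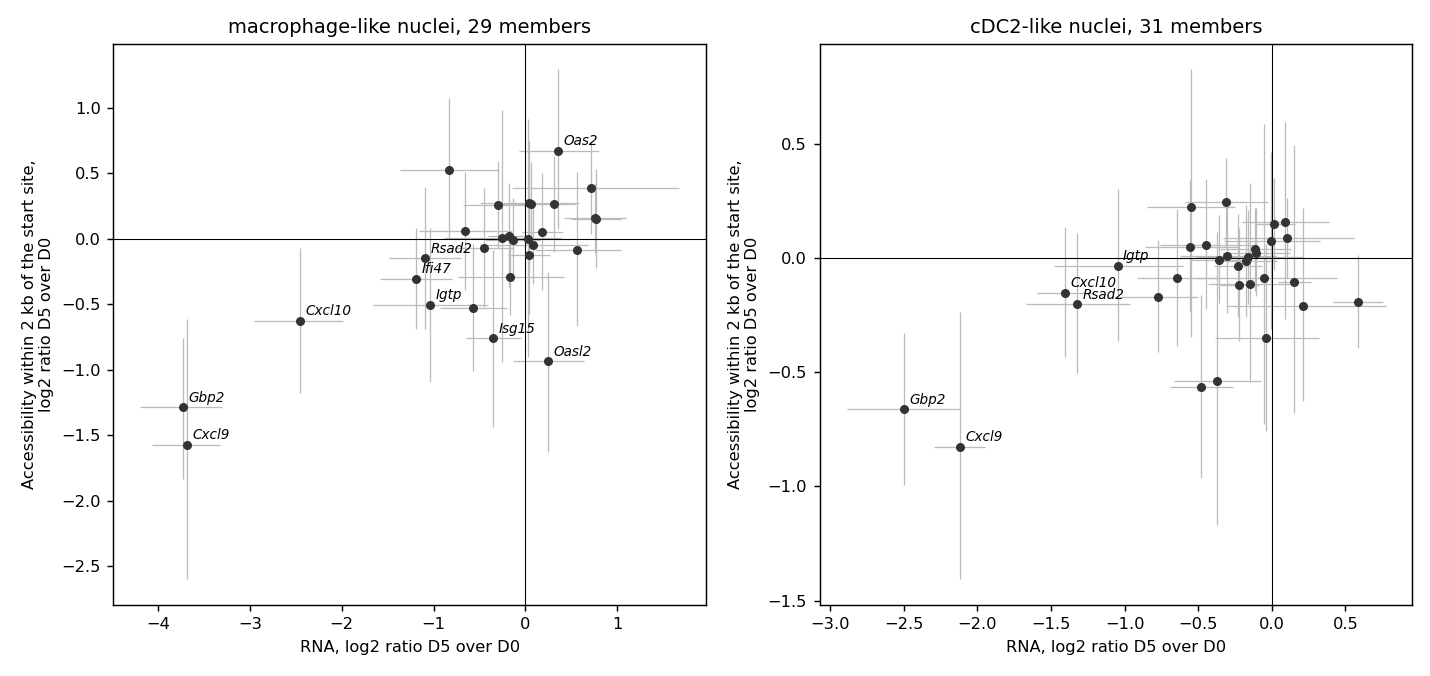
Log2 ratio, D5 over D0, of RNA (x axis) and of accessibility within 2 kb of the start site or span of start sites (y axis) for the members that entered both, in macrophage-like (left, 29 members) and cDC2-like nuclei (right, 31 members), with 95% counting intervals as grey bars. Cxcl9 and Gbp2 lie lowest and farthest left in both classes.

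The Cxcl9 promoter printed above lies in the region chr5:92327999-92328651. In pDC-like nuclei this region held 1 fragment on each day. Per 1000000 fragments of the class it held 10.5 and 7.81 at D0 and D5 in cDC1-like nuclei (log2 ratio -0.43, 95% interval -0.90 to 0.04), 5.78 and 2.62 in cDC2-like (log2 ratio -1.14, 95% interval -1.80 to -0.49) and 8.35 and 2.42 in macrophage-like nuclei (log2 ratio -1.79, 95% interval -3.04 to -0.65). In cDC1-like nuclei accessibility of Cxcl9 stood at 15.2 and 13.7 CPM (log2 ratio -0.15, 95% interval -0.52 to 0.22) over all its regions within 2 kb while its RNA was at 148 and 50.1 CPM. The difference between the classes in accessibility was not tested. The Isg15 region, chr4:156200420-156201323, was lower in 5 of the 6 classes in which it entered, with log2 ratios from -0.82 to -0.57 over the 6. In pDC-like nuclei it stood at 7.25 and 4.14 CPM of fragments (log2 ratio -0.81, 95% interval -1.48 to -0.17) while its RNA there was alike on both days. Irf7 was the opposite case, with RNA lower in 5 classes and accessibility lower in 0, for example 43.9 and 55.4 CPM of fragments in preDC-like nuclei (log2 ratio 0.34, 95% interval -0.15 to 0.86). Bst2 was most open in pDC-like nuclei, at 78.6 and 78.5 CPM of fragments. In preDC-like nuclei, where its RNA was higher than in pDC-like nuclei on both days, it stood at 47.9 and 52.9 CPM.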

How the data were processed

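RNA and open chromatin were read together by 10x Multiome in nuclei of 2 libraries (4 samples, grouped by the labels as D0 and D5 and as RNA and ATAC). As deposited, the files hold raw UMI counts per gene and nucleus and, per the file headers, raw cut-site counts per peak, from Cell Ranger ARC 2.0.2 and mm10 in the submitters' processing notes; the authors made one table per library. Here nuclei below 1000 UMIs or above 10% mitochondrial UMIs were dropped, Scrublet scores over 0.2 were removed as doublets (23.1% at D0 and 25.5% at D5), and 30 components of 2000 variable genes were clustered (scanpy 1.11.5, Leiden, resolution 1). Scrublet's own threshold would have called 42.0% at D0 and 9.99% at D5, and whether the doublet load differed between the libraries was not tested. Chromatin counts of the D5 nuclei were joined by identical gene counts. Counts were summed per class, peaks of both libraries that overlap were merged, and fragments were taken as cut counts divided by 2. Intervals are exact (Poisson for levels, Clopper-Pearson for ratios), and with 1 library a day no test or p-value was made. A count of 0 was set to the floor of 3 counts in the ratios behind medians, higher or lower calls and figures. Where the other day has few counts, this floor can turn the direction. The calculation of ratios and intervals was checked on simulated Poisson counts with known folds. Such counts hold no extra spread between nuclei, so the check cannot speak for genes such as Cxcl9. Its variance over mean was 5.65 in cDC2-like nuclei at D0 thinned to 1000 UMIs. Genes named in full were the 10 members entering at least 3 classes with the largest median change and those 2-fold higher or lower in pDC-like than in conventional nuclei on both days (up to 10), with the 2 highest and 2 lowest genes of each pathway list; others were named after their values were seen. The members, lists and classes were chosen with earlier results of these data known. Alternatives were TMM (edgeR 4.0.16), DESeq2 1.42.0 size factors, other filters, other folds, other clustering and a 10 kb window. Values of 1 signalling gene are not reported here.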

Additional observations from a re-analysis of the deposited data

Results flagged for a closer look

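Directions opposite in 2 classes, each past 1.5-fold and with an interval that excludes 0, were met in 2 members, and the differences between classes were not tested. Ifi205 had a log2 ratio of D5 over D0 of 0.72 in pDC-like nuclei and -1.06 in both macrophage-like and NK cell-like nuclei, a difference of 1.78 in each case (pDC-like minus the other). The pDC-like level of Ifi205 at D0, 16.9 CPM, was hardly above the 16.4 CPM that free RNA could give by the Ifng gauge. Rtp4 had a log2 ratio of 0.76 in macrophage-like nuclei, -1.25 in NK cell-like nuclei and -0.88 in T cell-like nuclei, differences of 2.01 and 1.63 (macrophage-like minus the lymphocytes). Xaf1 was also past 1.5-fold both ways, at -0.65 in preDC-like and 0.75 in Ccr7+ DC-like nuclei, but both intervals include 0.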

How the results depend on the processing

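The lower share of the GTPases and chemokines held in every alternative run, with 18 to 37 combinations of member and class lower and 0 to 2 higher at D5; the low end, 18 against 33, came with a mean of 30 CPM or more, which admits fewer genes. For the other members (36 lower as reported), TMM and DESeq2 size factors gave 23 each, no filter on low genes 63, a mean of 30 CPM 18, a fold of 2 15 and Leiden resolution 0.5 22. Pooled over classes, 32.9% of the members' combinations were lower as reported (15.8% of all genes), 24.3% with TMM (7.78%) and with DESeq2 size factors (8.15%), 36.5% of 274 with no filter (28.4%), 29.0% of 124 with a mean of 30 CPM (12.4%), 42 of 210 with a fold of 2 (4.65%), 35.4% without doublet removal (15.8%), 40.1% with at least 2000 UMIs (20.8%), 35.9% when thinned (19.0%) and 48 of 160 in the 6 classes found at Leiden resolution 0.5 (15.2%). Higher were 5.71% as reported (6.36%), 10.0% with TMM (13.9%) and DESeq2 (13.3%), 6.20% with no filter (9.26%), 5.65% with 30 CPM (5.37%), 0.476% with a fold of 2 (1.48%), 6.60% without doublet removal (6.36%), 5.66% with 2000 UMIs (10.2%), 8.13% when thinned (8.69%) and 12 of 160 at resolution 0.5 (6.31%). Counts per class, each over the members that entered, moved as follows. The members that enter and the shares of all genes also change with the setting, so these counts cannot be read against the class shares given earlier. With TMM and with DESeq2 size factors alike, 4 members were lower in cDC1-like nuclei, and 7 were higher in macrophage-like, 3 in T cell-like and 2 in preDC-like nuclei; TMM also gave 1 lower by accessibility in cDC2-like and in NK cell-like nuclei and a median log2 ratio of pDC-like over conventional classes at D5 of -0.67. With no filter on low genes, 5 were lower and 4 higher in pDC-like, 12 lower in cDC1-like, 5 higher in Ccr7+ DC-like, 18 lower in NK cell-like and 17 lower in T cell-like nuclei. With a mean of 30 CPM, lower were 0 in pDC-like, 2 in cDC1-like, 4 in cDC2-like, 9 in preDC-like, 6 in Ccr7+ DC-like and 3 in NK cell-like nuclei, and higher were 1 in pDC-like and 0 in Ccr7+ DC-like. With a fold of 2, higher were 0 in pDC-like, cDC1-like, cDC2-like, macrophage-like, NK cell-like and T cell-like nuclei and 1 in Ccr7+ DC-like, and lower were 4 in cDC1-like, 9 in preDC-like, 6 in Ccr7+ DC-like, 6 in NK cell-like and 4 in T cell-like nuclei. Without doublet removal, 3 were lower in pDC-like nuclei, 0 higher in cDC2-like, 2 higher in preDC-like and 2 in T cell-like nuclei, the pDC-like median over the conventional classes at D0 was -0.40 and 1 member was lower there at D5. With nuclei of at least 2000 UMIs, 5 were lower in pDC-like and 17 in T cell-like nuclei, and 0 were higher in cDC2-like and NK cell-like, 2 in preDC-like and 2 in T cell-like nuclei. Thinned to 1000 UMIs, 2 were lower in pDC-like nuclei, and 1 was higher in preDC-like, 2 in NK cell-like and 3 in T cell-like nuclei, and Zbp1 in preDC-like nuclei turned to 1.41 from 1 UMI at D0. At Leiden resolution 0.5, 0 were higher in cDC2-like and 5 in macrophage-like nuclei. A 10 kb window gave lower accessibility for 2 members in pDC-like, 3 in macrophage-like and 1 in NK cell-like nuclei. At D5, 209 of the 210 combinations lay above free RNA by the NK cell markers against 210 by Ifng. Where the construction does not show it, the cause was not tested. No paired analysis was possible because each day is 1 library, which also leaves no replicate to omit. Depth limits preDC-like and T cell-like nuclei most, with the fewest UMIs at D0.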

Other observations

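A further list of 67 interferon-stimulated genes that are no members was also counted. In macrophage-like nuclei 13 of the 56 that entered were lower (all genes 19.2%) and 3 higher, in preDC-like nuclei 16 of 51 were lower (all genes 21.5%) and 2 higher, and in pDC-like nuclei 1 of 47 was lower (all genes 6.91%) and 2 higher. Lower were 15 of 52 in Ccr7+ DC-like (15.8%), 13 of 55 in NK cell-like (14.3%), 11 of 54 in cDC2-like (11.8%), 8 of 51 in cDC1-like (15.5%) and 13 of 57 in T cell-like nuclei (21.0%), and in that order 4, 2, 1, 2 and 3 were higher. Ms4a4c, a membrane protein of the MS4A family, was higher at D5 in 7 of 8 classes, with NK cell-like nuclei at 29.5 CPM at D0 against 77.8 at D5 (log2 ratio 1.40, 95% interval 0.97 to 1.85). Its relative Ms4a6d was higher in 3 of 4 classes, with cDC2-like nuclei at 22.7 CPM at D0 against 50.7 at D5 (log2 ratio 1.16, 95% interval 0.83 to 1.51). At the other end stood Pml, the scaffold of nuclear bodies, lower in 6 of 8 classes (cDC2-like nuclei 51.2 CPM at D0 against 22.8 at D5, log2 ratio -1.17, 95% interval -1.43 to -0.90), and Ube2l6, the conjugating enzyme for ISG15, lower in 6 of 7 classes (Ccr7+ DC-like nuclei 101 CPM at D0 against 32.3 at D5, log2 ratio -1.65, 95% interval -2.12 to -1.17).

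A cluster led by Dab2 and Il1r2 was left unnamed and held 276 nuclei at D0 and 2770 at D5. In it 14 of 32 members were lower at D5 (all genes 19.2%) and 1 higher (all genes 692 of 7993), with a median log2 ratio of -0.50 against -0.15 over all genes. Cxcl9 stood there at 60.8 CPM at D0 against 11.9 at D5 (log2 ratio -2.36, 95% interval -2.95 to -1.73) and Gbp2 at 43.7 CPM at D0 against 4.50 at D5 (log2 ratio -3.28, 95% interval -4.07 to -2.46). The 110 and 181 nonclassical monocyte-like nuclei were few (148082 and 315959 UMIs), with a median half-width of 1.77 for intervals of log2 ratios. Of 29 members, 10 were higher at D5 (all genes 1421 of 7931) and 8 lower (2197). The chemokines summed to 74.3 and 79.1 CPM (log2 ratio 0.09, 95% interval -0.98 to 1.26). The GTPases summed to 115 and 57.0 CPM (-1.01, -2.05 to 0.04) and the effectors to 338 and 598 CPM (0.83, 0.37 to 1.30). All member levels summed to 1344 CPM at D0 against 1652 at D5.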
